A study of Rattus norvegicus with 32 samples.

Results

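The left ventricle of female Wistar rats with sepsis that received landiolol was compared with that of female sham rats, to describe which transcripts still differed from sham under the drug. Sepsis was induced by cecal ligation and puncture (CLP), an operation that lets gut bacteria into the abdomen, and landiolol, infused continuously, is a drug of brief action that occupies β1-adrenergic receptors. All arrays whose labels give a female rat and these treatments were used, 6 CLP plus landiolol and 5 sham, which are 11 of the 32 arrays of the study, with 1 rat for each array. The 5 arrays of female rats with CLP and no drug were measured beside them, shared the estimate of the spread and gave the direct test of CLP plus landiolol against CLP. The rats of all 3 groups were young adults. They were operated on under the same analgesic, buprenorphine, and were infused with equal volumes. From 1 h after surgery the infusion held landiolol in the CLP plus landiolol group and saline alone in the others, without an antibiotic. Their hearts were imaged in the living animal, perfused outside the body and frozen 20 h after surgery, so that every group, sham included, carries the operation and the perfusion. RNA samples of low quality had been discarded by the study. The study had no sham group with landiolol, so a difference from sham holds the sepsis and the drug together.

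In sepsis, bacterial products and cytokines reach the heart through the blood. Cytokines of the IL-1 and IL-6 families induce acute-phase proteins through NF-kappaB, C/EBP and STAT3, interferons induce antiviral and antigen-presenting genes through STAT and IRF factors, and recruited monocytes and neutrophils add transcripts of their own. Cardiomyocytes in septic hearts are known for weaker contraction and for lower use of fatty acids. The β1-adrenergic receptor, which landiolol occupies, couples through a stimulatory G protein to adenylyl cyclase, cAMP and protein kinase A, and cyclic nucleotide phosphodiesterases degrade the cAMP.

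Of the 45598 probes on the array, 25395 were kept, for 19464 genes or unnamed probes. A level below is the log2 of the normalised intensity of the probe that stands for a gene, a difference is a difference of mean levels, given ± its SE where an error is shown, and a fold is the same difference on the linear scale. In CLP plus landiolol vs sham, 1332 probes passed a false discovery rate (FDR) of 1%, which is 5.25% of the probes tested, and they stood for 1174 genes, 674 higher and 500 lower under CLP plus landiolol. Counted with 1 probe per gene, 1069 genes passed, or 5.49%, with 607 higher, or 3.12%, and 462 lower, or 2.37%. The 2 groups did not overlap in 2474 probes, which is 9.74% of all, and in 1199 of the 1332 that passed. In CLP plus landiolol vs CLP, 24 probes passed an FDR of 5%, which is 0.0945% of all, and 8 of the 1332 were among them. The 2 comparisons share the CLP plus landiolol arrays, which makes such an overlap likelier, so passing both is no independent support. Without single arrays the number of genes that passed ran from 787, without sham replicate 1, to 1425, without CLP replicate 5. Mean correlations of an array with the others of its group ran from 0.951 to 0.979, no spot was saturated, and between 36151 and 38705 spots per array were well above background. All 10 cardiomyocyte markers, such as Myh6 and Tnnt2, were measured, none passed in limma and 1 had an unadjusted p under 0.05, and their summed linear signal was 2583434 to 3020682 in sham and 2439664 to 2972484 under CLP plus landiolol. In whole tissue, fewer cells of a type and less RNA per cell cannot be told apart.

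The arrays lay on 2 slides, both with arrays of every group. All sham arrays lay in row 1 of their slide and all CLP plus landiolol arrays in row 2, and only the CLP arrays, 3 in row 1 and 2 in row 2, lay in both. Row and group can therefore be told apart only through the CLP arrays. With the row as a term in the model all 1332 probes kept their direction and the median share of the difference that remained was 0.867, but the median SE of these probes went from 0.206 to 0.37 and 19 genes passed in place of 1174. Within slide 1 alone, with 3 arrays in each of the 2 groups, 100 genes passed, and within slide 2 alone, with 2 and 3 arrays, 11 passed. All 1332 probes had the same direction on both slides. The 1332 were chosen on these same arrays, so this agreement was largely fixed in advance. The fit with the row as a term used these arrays too, so the directions kept there are no independent support. On each slide, row still went with group. The titles of the samples hold a code for each rat that reads like a date, which the labels do not explain. With the month of this code as a term, a fit added after the data were seen, 974 genes passed against sham and 0 against CLP in limma, with 2316 probes at an unadjusted p under 0.05 against CLP. Within the month of most arrays, with 3 of each group, 99 genes passed against sham. All 1332 probes kept their direction in both fits, which again used the arrays on which the probes were chosen. With the month as a term the calls of Adra1b, Cntnap1, Gzmb, Kcnj12, Mcm5, Mcm7, Pde10a, Ppargc1b, RT1-Da and the probe A_44_P974425 against sham were lost. The number that fell went from 3 to 1 in MHC class II, from 5 to 3 in potassium channels and from 3 to 1 in glucose uptake and glycolysis.

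Of the gene lists examined, that of acute-phase and secreted defence proteins had the highest median. Of 30 genes listed, 23 were measured, 9 rose and 1 fell, with a median difference of 1.26 against -0.01 over all genes. The member with the largest rise was the probe named Saal1, at 5.50, 8.35, 5.91, 5.91 and 9.09 on the 5 sham arrays and from 13.52 to 15.12 (median 14.39) on the 6 CLP plus landiolol arrays. Every CLP plus landiolol array was above every sham array, and sham replicates 2 and 5 were above the other sham arrays. The difference was 7.44 ± 0.57 (adjusted p = 4.68e-06), or 174-fold, and CLP without the drug differed from sham by 7.07. The name is uncertain, since Saal1 is also an older name of the neighbouring Saa3, a serum amyloid A protein of the acute phase. The probe lies at 97248442-97248501 of chromosome 1, minus strand, in rat build rn4. Its sequence is shown because the name does not settle which transcript was measured.
Saal1 probe: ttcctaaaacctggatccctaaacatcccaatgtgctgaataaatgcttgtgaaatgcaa
Reg3b, a secreted lectin that binds bacteria, was at 5.93, 6.28, 8.63, 8.87 and 7.54 in sham and from 11.17 to 17.05 (median 13.92) under CLP plus landiolol. The groups did not overlap, although the CLP plus landiolol arrays were widely spread. The difference was 6.65 ± 1.05 (adjusted p = 0.000775), with 4.88 on slide 1 and 8.37 on slide 2. C3, the central component of complement, was at 7.55, 7.24, 8.93, 6.35 and 8.37 in sham and from 11.40 to 12.64 (median 12.10) under CLP plus landiolol, a difference of 4.35 ± 0.37 (adjusted p = 6.01e-06). Slpi, an inhibitor of leukocyte proteases, rose by 3.24 ± 0.28 (adjusted p = 6.01e-06) and was at 9.10, 7.66, 8.52, 7.74 and 8.60 in sham and from 10.83 to 12.07 (median 11.60) under CLP plus landiolol. The groups did not overlap in C3 or in Slpi. Lcn2, which binds bacterial iron carriers, rose by 2.99 ± 0.39 (adjusted p = 0.000227), with 10.86, 10.87, 11.49, 9.76 and 12.35 in sham and from 13.22 to 15.08 (median 13.88) under CLP plus landiolol. Its groups did not overlap either. Without single arrays the number that rose was 7 to 9. With the row as a term Saal1, C3 and Slpi still passed, and Reg3b (8.65, adjusted p = 0.0665) and Lcn2 (3.26, adjusted p = 0.0838) did not.

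**Figure D1:**
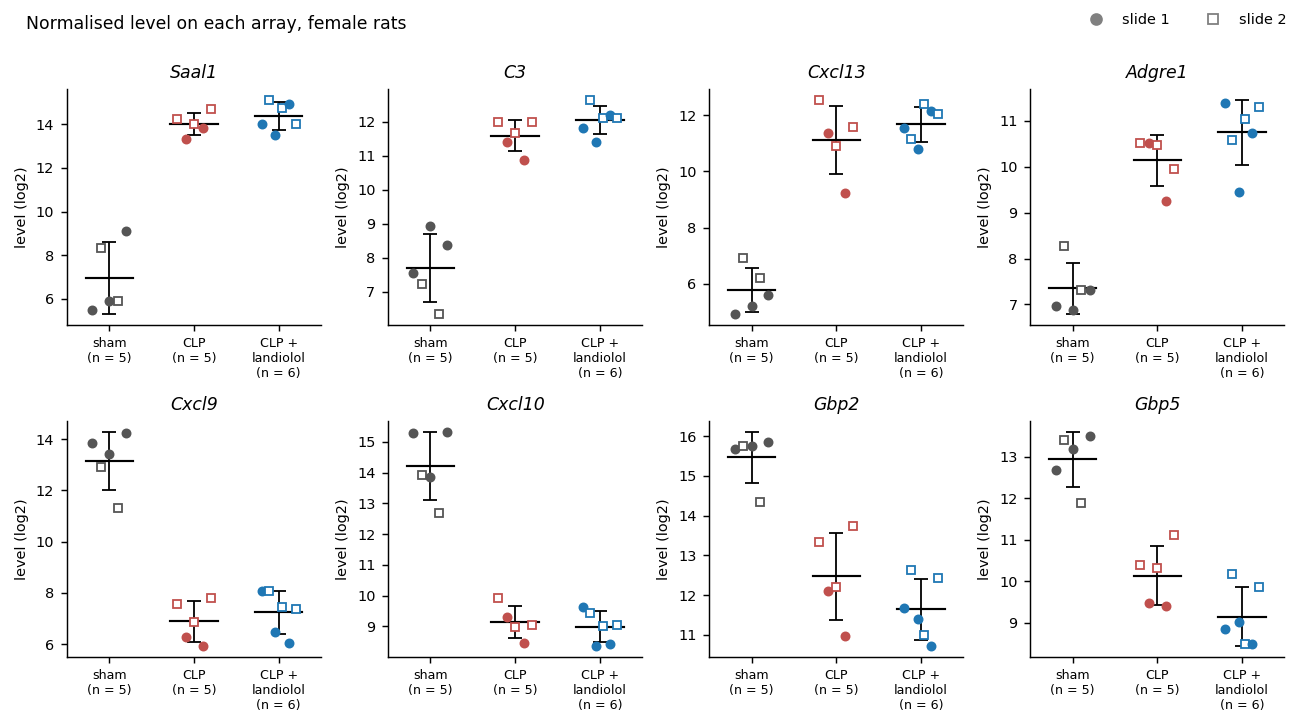
Normalised level (log2) of 8 genes on each array of female rats, with filled circles for slide 1 and open squares for slide 2, the line at the mean and bars of ±1 SD. Saal1 (a probe of uncertain name), C3, Cxcl13 and Adgre1 were above every sham array on all 6 CLP plus landiolol arrays. On the same arrays Cxcl9, Cxcl10, Gbp2 and Gbp5 were below every sham array.

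The promoters of C3 and Lcn2 are shown because their genes rose strongly and both hold a C/EBP site, the element through which C/EBP factors induce acute-phase genes. Each is the 250 bases before the gene's start in RefSeq, build GRCr8, 5′ to 3′ along the gene. Capitals mark a C/EBP match (TTGCNNAA, on either strand) and, in Lcn2, an NF-kappaB match (GGGANNTTCC, on either strand).
C3 (chr9:2201340-2201589, minus strand): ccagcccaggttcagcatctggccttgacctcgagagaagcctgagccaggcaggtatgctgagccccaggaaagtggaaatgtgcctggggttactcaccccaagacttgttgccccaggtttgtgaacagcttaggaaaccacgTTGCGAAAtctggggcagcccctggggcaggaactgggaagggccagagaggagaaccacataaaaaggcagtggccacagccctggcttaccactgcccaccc
Lcn2 (chr3:36081781-36082030, minus strand): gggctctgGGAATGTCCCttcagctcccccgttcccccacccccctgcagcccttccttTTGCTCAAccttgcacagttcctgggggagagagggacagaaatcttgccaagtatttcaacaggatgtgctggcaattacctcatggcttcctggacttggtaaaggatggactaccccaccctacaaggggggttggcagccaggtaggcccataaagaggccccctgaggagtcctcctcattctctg
The C/EBP match lay 104 bases before the start in C3 and 191 bases before it in Lcn2, where the NF-kappaB match lay 242 bases before the start. Of the 27457 rat promoters of this length, 9.2% held the C/EBP letters and 1.07% the NF-kappaB letters. Of the 11353 promoters of genes tested here, 7.78% held the C/EBP letters and 1.29% the NF-kappaB letters. Of the genes that rose, 399 had a promoter in the table, and 12.8% of these held the C/EBP letters and 1.5% the NF-kappaB letters. Of the genes that fell, 299 had one, and 6.69% of these held the C/EBP letters and 4.01% the NF-kappaB letters. Of the 23 acute-phase and defence genes measured, 17 had a promoter and 8 held the C/EBP letters. A match gives letters and no evidence that a factor was bound.

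Genes of myeloid cells rose in part. Cxcl13, a chemokine that attracts B cells and is made by macrophages and stromal cells, was at 4.92, 6.90, 5.21, 6.21 and 5.61 in sham and from 10.81 to 12.42 (median 11.78) under CLP plus landiolol. The lowest CLP plus landiolol array was far above the highest sham array, and the difference was 5.91 ± 0.50 (adjusted p = 6.01e-06), or 60.2-fold. Of 20 macrophage and monocyte markers, 17 were measured, 3 rose and 0 fell, with a median difference of 0.37. Adgre1, which encodes the macrophage surface protein F4/80, was at 6.96, 8.27, 6.89, 7.31 and 7.32 in sham and from 9.46 to 11.38 (median 10.88) under CLP plus landiolol (difference 3.398 ± 0.35, adjusted p = 3.21e-05). Lyz2, the lysozyme of myeloid cells, rose by 1.11 and Cd68, a lysosomal protein of macrophages, by 0.90. The summed signal of the 17 markers was 49893 to 61866 in sham, 62688 to 92635 in CLP and 72192 to 87652 under CLP plus landiolol, so that sham and CLP plus landiolol did not overlap. The part of cell numbers in this was not tested, and a sum of linear signals gives most weight to bright markers such as Lyz2. Clec4a2 and Siglec5, receptors of myeloid cells, rose by 4.52 ± 0.61 and 3.83 ± 0.33 (adjusted p = 0.000253 and 6.01e-06). On none of the sham arrays was Siglec5 well above background, and it was at least 7.8-fold higher under CLP plus landiolol, whereas Clec4a2 was well above background on 2 of the 5 sham arrays. C3ar1, the receptor of the C3a fragment of complement, rose by 1.45, while its other 2 probes did not pass.

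S100a8 and S100a9 encode the subunits of calprotectin, an abundant protein of neutrophils and monocytes that binds zinc and calcium. S100a8 was at 4.29, 2.13, 2.51, 3.82 and 2.29 in sham and from 6.30 to 9.08 (median 6.90) under CLP plus landiolol, with no overlap (difference 4.25 ± 0.50, adjusted p = 9.32e-05). S100a9 was at 4.72, 3.14, 4.45, 4.71 and 3.42 in sham and from 6.25 to 9.02 (median 6.61) under CLP plus landiolol (difference 2.96 ± 0.52, adjusted p = 0.00166). In both, CLP plus landiolol replicate 3 was the highest array. They were well above background on 1 and 2 of the 5 sham arrays. These were the 2 genes that rose among 7 neutrophil markers measured, and 13 further ones, including the granule proteins Mpo, Elane, Mmp8, Camp and Ngp, were too dim in every group to be kept. The median difference of the 7 was 0.05 and their summed signal overlapped, at 878 to 1601 in sham and 572 to 1777 under CLP plus landiolol.

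Of the gene lists examined, that of interferon-induced genes held the most falls and had the lowest median. Of 42 listed, 40 were measured, 16 fell and 0 rose, 38 had a negative difference, and the median was -1.58. Cxcl9, a chemokine induced by interferon-gamma that attracts T cells, was at 13.86, 12.93, 13.42, 11.32 and 14.24 in sham and from 6.03 to 8.07 (median 7.41) under CLP plus landiolol. All sham arrays were above all CLP plus landiolol arrays, with sham replicate 4 the lowest of the sham group, and the difference was -5.91 ± 0.52 (adjusted p = 6.90e-06), or 60.2-fold lower. Cxcl10, which shares the receptor of Cxcl9, was at 15.30, 13.93, 13.87, 12.70 and 15.31 in sham and from 8.37 to 9.62 (median 9.03) under CLP plus landiolol (difference -5.23 ± 0.42, adjusted p = 4.80e-06). Ubd, a ubiquitin-like modifier induced by interferon, was at 15.26, 13.26, 13.49, 10.04 and 13.74 in sham and from 7.18 to 9.19 (median 8.25) under CLP plus landiolol (difference -4.99 ± 0.72, adjusted p = 0.000424). The sham arrays of Ubd were widely spread and did not reach down to the others. The guanylate-binding proteins are GTPases that attack intracellular bacteria and their vacuoles. Gbp2 was at 15.67, 15.75, 15.75, 14.34 and 15.86 in sham and from 10.72 to 12.64 (median 11.54) under CLP plus landiolol, a fall of 3.83 (adjusted p = 0.000133). Gbp5 was at 12.66, 13.41, 13.18, 11.89 and 13.50 in sham and from 8.49 to 10.17 (median 8.93) under CLP plus landiolol, a fall of 3.78 (adjusted p = 3.46e-05), and Gbp4, well above background on 3 of the 6 CLP plus landiolol arrays, fell by 3.66 (adjusted p = 5.21e-05). In all 3 the groups did not overlap and sham replicate 4 was the lowest sham array. Batf2, a transcription factor induced by interferon, fell by 4.002 (adjusted p = 2.92e-05), from 9.67, 8.17, 10.37, 8.19 and 9.08 in sham to levels from 4.41 to 5.76 (median 5.05) under CLP plus landiolol, and was well above background on 4 of the 6 CLP plus landiolol arrays.

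The list of interferon-induced genes held 13 to 21 falls without single arrays. Its median was -1.86 on slide 1 and -1.20 on slide 2. With the row as a term 0 members passed, 32 of 40 had a negative difference, and the median was -1.16. CLP without the drug gave a median of -1.28 for the same 40 genes, and 0 of them passed in CLP plus landiolol vs CLP.

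The promoters of 4 of these genes are shown because each holds an interferon-stimulated response element, the sequence bound by STAT and IRF complexes, and all 4 genes fell. They are the 250 bases before the start in RefSeq, build GRCr8, on the plus strand. Capitals mark matches to GAAANNGAAA on either strand and, in Cxcl10 and Gbp5, matches to the NF-kappaB letters GGGANNTTCC on either strand.
Cxcl10 (chr14:15988816-15989065): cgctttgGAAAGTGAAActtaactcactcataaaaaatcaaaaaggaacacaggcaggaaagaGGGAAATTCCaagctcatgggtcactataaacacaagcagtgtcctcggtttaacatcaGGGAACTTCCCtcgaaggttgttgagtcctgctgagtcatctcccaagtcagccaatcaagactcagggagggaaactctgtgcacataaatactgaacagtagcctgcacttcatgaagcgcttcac
Gbp2 (chr2:234005477-234005726): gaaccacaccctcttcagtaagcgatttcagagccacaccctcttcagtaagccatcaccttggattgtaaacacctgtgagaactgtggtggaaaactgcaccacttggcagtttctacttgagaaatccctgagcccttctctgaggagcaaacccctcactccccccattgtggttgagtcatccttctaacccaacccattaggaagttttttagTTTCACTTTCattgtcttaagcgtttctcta
Gbp5 (chr2:233910749-233910998): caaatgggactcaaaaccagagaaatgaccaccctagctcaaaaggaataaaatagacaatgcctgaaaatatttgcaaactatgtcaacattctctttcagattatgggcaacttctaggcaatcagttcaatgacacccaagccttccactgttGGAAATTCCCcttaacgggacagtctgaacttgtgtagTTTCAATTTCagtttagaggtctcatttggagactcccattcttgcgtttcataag
Batf2 (chr1:212897096-212897345): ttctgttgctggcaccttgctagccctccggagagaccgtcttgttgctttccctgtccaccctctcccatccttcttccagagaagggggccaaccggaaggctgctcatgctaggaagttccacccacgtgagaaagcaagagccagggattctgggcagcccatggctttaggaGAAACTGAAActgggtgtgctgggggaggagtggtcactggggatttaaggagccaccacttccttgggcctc
The response element began 243 bases before the start in Cxcl10, 31 in Gbp2, 56 in Gbp5 and 73 in Batf2. In Cxcl10 the NF-kappaB letters occurred 187 bases before the start and, on both strands of 1 overlapping stretch, 128 and 127 bases before it. The element was in 3.29% of all promoters and in 2.76% of the 11353 of genes tested. It was in 9.7% of the 299 genes that fell and have a promoter in the table, and in 3.26% of the 399 that rose. In the list of interferon-induced genes 19 of the 33 with a promoter held it. The promoter of Cxcl9 did not hold these letters in this window.

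Genes of MHC class II, which present antigen to T cells, fell in part. Of 9 class II genes measured, 3 fell and 0 rose (median -1.04), where 2.37% of all genes were called lower. RT1-Da, an alpha chain of class II molecules, was at 11.66, 10.97, 12.03, 10.76 and 11.14 in sham and from 9.37 to 10.34 (median 9.69) under CLP plus landiolol, with no overlap (difference -1.53 ± 0.30, adjusted p = 0.00324). It did not pass without sham replicate 1 (adjusted p = 0.0112) or sham replicate 3 (adjusted p = 0.0104), and without either of these 0 class II genes passed. The median of the 9 genes was -1.55 on slide 1 and -0.59 on slide 2. Of 14 lymphocyte and NK cell markers measured, 1 fell and 0 rose (median -0.41, and 0.01 with the row as a term). It was Gzmb, a protease of cytotoxic cells, with a difference of -1.56 ± 0.34 (adjusted p = 0.00733), and its second probe did not pass (adjusted p = 0.0104). The call was lost without any 1 of sham replicates 2, 4 and 5, CLP replicate 3, or CLP plus landiolol replicates 2 to 6, with an adjusted p of up to 0.0235. Genes of the B-cell lineage such as Cd79a and Ms4a1 were too dim to be kept. Fcer2, a low-affinity receptor of IgE found on B cells, fell by 3.31 (adjusted p = 0.000448). It was at 9.09, 7.67, 9.32, 9.03 and 7.33 in sham and from 4.28 to 5.93 (median 5.20) under CLP plus landiolol, without overlap.

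The proteasome list went both ways, where 5.49% of all genes passed. Of 47 subunits measured, 5 rose and 3 fell (median 0.19). The 3 that fell were Psmb9, Psmb10 and Psme2, which belong to the immunoproteasome and its interferon-induced activator. Psmb9 was at 14.15, 13.48, 14.51, 12.64 and 13.88 in sham and from 10.81 to 11.87 (median 11.48) under CLP plus landiolol (difference -2.33 ± 0.39, adjusted p = 0.00122). The 5 that rose were constitutive subunits of the regulatory particle, Psmd8, Psmd4, Psmd12, Psmd2 and Psmc2. Psmd8 was at 11.34, 11.50, 10.98, 11.20 and 11.11 in sham and from 11.85 to 12.51 (median 11.96) under CLP plus landiolol, with no overlap (difference 0.85 ± 0.16, adjusted p = 0.00209). Without any 1 of sham replicates 1, 3 and 5 or CLP plus landiolol replicate 3, 1 subunit fell in place of 3.

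Single genes of the cytokine pathways passed, where 5.49% of all genes did. Of 36 genes of the NF-kappaB, TNF and IL-1 list, 2 rose and 1 fell (median -0.15). Il1r2, a decoy receptor that binds IL-1 without signalling, was at 5.62, 6.43, 6.01, 5.39 and 5.31 in sham and from 7.24 to 8.21 (median 7.99) under CLP plus landiolol (difference 2.06 ± 0.30, adjusted p = 0.000421). Il18, a cytokine that induces interferon-gamma, was at 8.12, 8.02, 8.29, 8.11 and 8.16 in sham and from 9.15 to 9.69 (median 9.34) under CLP plus landiolol (difference 1.26 ± 0.16, adjusted p = 0.000141). Its secreted inhibitor Il18bp was at 11.34, 10.46, 11.04, 9.58 and 10.72 in sham and from 8.20 to 9.45 (median 8.58) under CLP plus landiolol (difference -1.94 ± 0.33, adjusted p = 0.00128). The cytokine was thus higher and its inhibitor lower, with no overlap of the groups in either. Of 30 genes of the IL-6, JAK and STAT list 1 rose and 1 fell. The call of the gene that rose was lost in 9 of the 16 fits without an array. Socs1, which inhibits JAK kinases, fell by 1.85 (adjusted p = 0.00221), with 3 of the 6 CLP plus landiolol arrays well above background. Of 16 genes of the Toll-like receptor list 1 rose, Tlr1, which forms a receptor for bacterial lipopeptides with Tlr2, by 1.86 ± 0.28 (adjusted p = 0.000609), with 3 of the 5 sham arrays well above background. Cx3cl1, a membrane-bound chemokine of endothelium that captures monocytes, fell by 2.22 (adjusted p = 0.00042), from 14.58, 15.75, 14.90, 14.45 and 15.90 in sham to levels from 12.31 to 13.68 (median 12.97) under CLP plus landiolol.

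**Figure D2:**
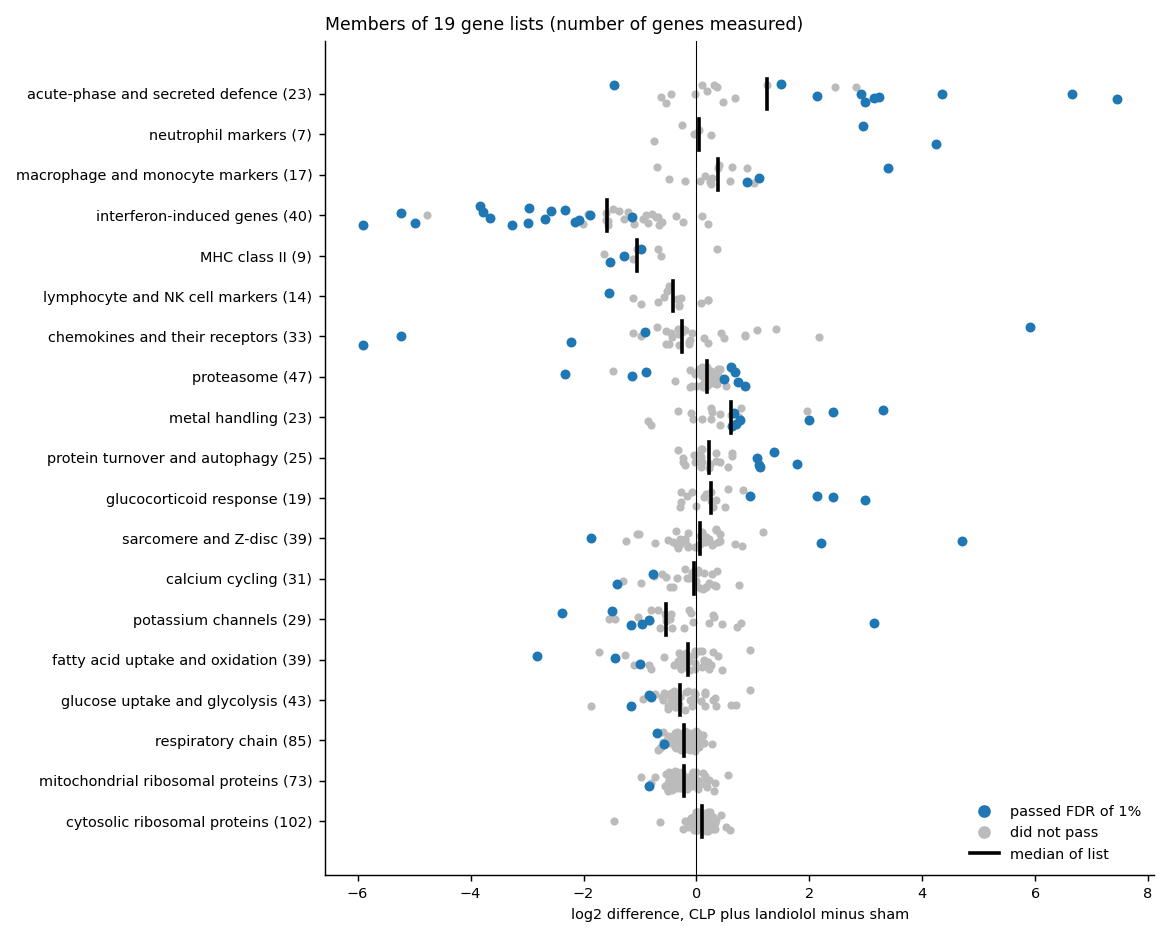
Log2 difference of CLP plus landiolol minus sham for each measured member of 19 gene lists, with blue points for genes past an FDR of 1%, grey points for the others and a black bar at the median of the list. The interferon-induced genes lie to the left with a median of -1.58 and the acute-phase and defence genes to the right with a median of 1.26, while the respiratory chain (median -0.23) and the cytosolic ribosome (median 0.10) lie close to 0.

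Adrb1, the β1-adrenergic receptor and the target of the drug, was at 6.75, 5.87, 6.22, 6.28 and 6.25 in sham, 5.84, 6.58, 6.09, 5.81 and 6.17 in CLP and from 5.79 to 6.65 (median 5.96) under CLP plus landiolol. The 3 groups overlapped, and the difference from sham was -0.15 ± 0.20 (adjusted p = 0.681). Grk2, a kinase that desensitises the receptor, differed by 0.12 ± 0.11 (adjusted p = 0.542). Grk5, another kinase of this family, differed by 0.64 ± 0.16 on its brightest probe (adjusted p = 0.0155). Of its other 2 probes, 1 passed with a difference of 1.196 (adjusted p = 0.0019) and 1 did not, with 0.79 (adjusted p = 0.0201). Of the 19 genes of receptors, G proteins, kinases and arrestins that were measured and listed, 1 rose and 2 fell (median 0.01). Over all genes 5.49% passed. Adra1d, an α1-adrenergic receptor, was at 8.65, 8.63, 8.83, 9.24 and 8.28 in sham, 5.74, 6.004, 6.01, 5.65 and 4.96 in CLP and from 4.61 to 6.38 (median 5.76) under CLP plus landiolol. The sham arrays lay above all others, and the difference was -3.04 ± 0.30 (adjusted p = 2.43e-05), or 8.2-fold lower, while CLP plus landiolol and CLP differed by 0.02 (adjusted p = 0.996). Adra1b, another α1 receptor, fell by 1.26 (adjusted p = 0.00932). This call was lost without any 1 of the 5 sham replicates, of CLP replicates 1, 3 and 4, or of CLP plus landiolol replicates 2, 3, 5 and 6, with an adjusted p of up to 0.0289. Adra1a, also of this family, differed by -0.04 ± 0.15 (adjusted p = 0.898). Arrb2, an arrestin that uncouples receptors from G proteins, rose by 0.78 ± 0.14 (adjusted p = 0.00168), with 9.65, 9.34, 9.73, 9.72 and 9.88 in sham and from 10.29 to 10.69 (median 10.45) under CLP plus landiolol.

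Over all genes 5.49% passed. In the list of cAMP production and action, 1 of 33 genes rose and 0 fell by their brightest probe (median -0.21). It was Rapgef4, which encodes Epac2, an exchange factor switched on by cAMP, at 8.86, 9.08, 9.29, 9.21 and 9.23 in sham and from 9.99 to 10.37 (median 10.16) under CLP plus landiolol. The groups did not overlap, the difference was 1.04 ± 0.14 (adjusted p = 0.000261), and its other probe passed too. Pkia, an inhibitor of protein kinase A, differed by -0.98 ± 0.27 on its brightest probe (adjusted p = 0.0252), while its other probe passed with -0.95 (adjusted p = 0.00235). Gnas, the stimulatory G protein, and Prkaca, a catalytic subunit of protein kinase A, differed by 0.01 ± 0.10 (adjusted p = 0.979) and -0.23 ± 0.12 (adjusted p = 0.222). Of 16 phosphodiesterases 1 rose and 0 fell (median 0.02), and the cardiac isoforms Pde3a and Pde4d differed by 0.12 ± 0.18 (adjusted p = 0.733) and -0.73 ± 0.34 (adjusted p = 0.188). Of the 5 probes of Pde4d 1 passed, with a difference of -0.66, and all 5 were negative.

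**Figure D3:**
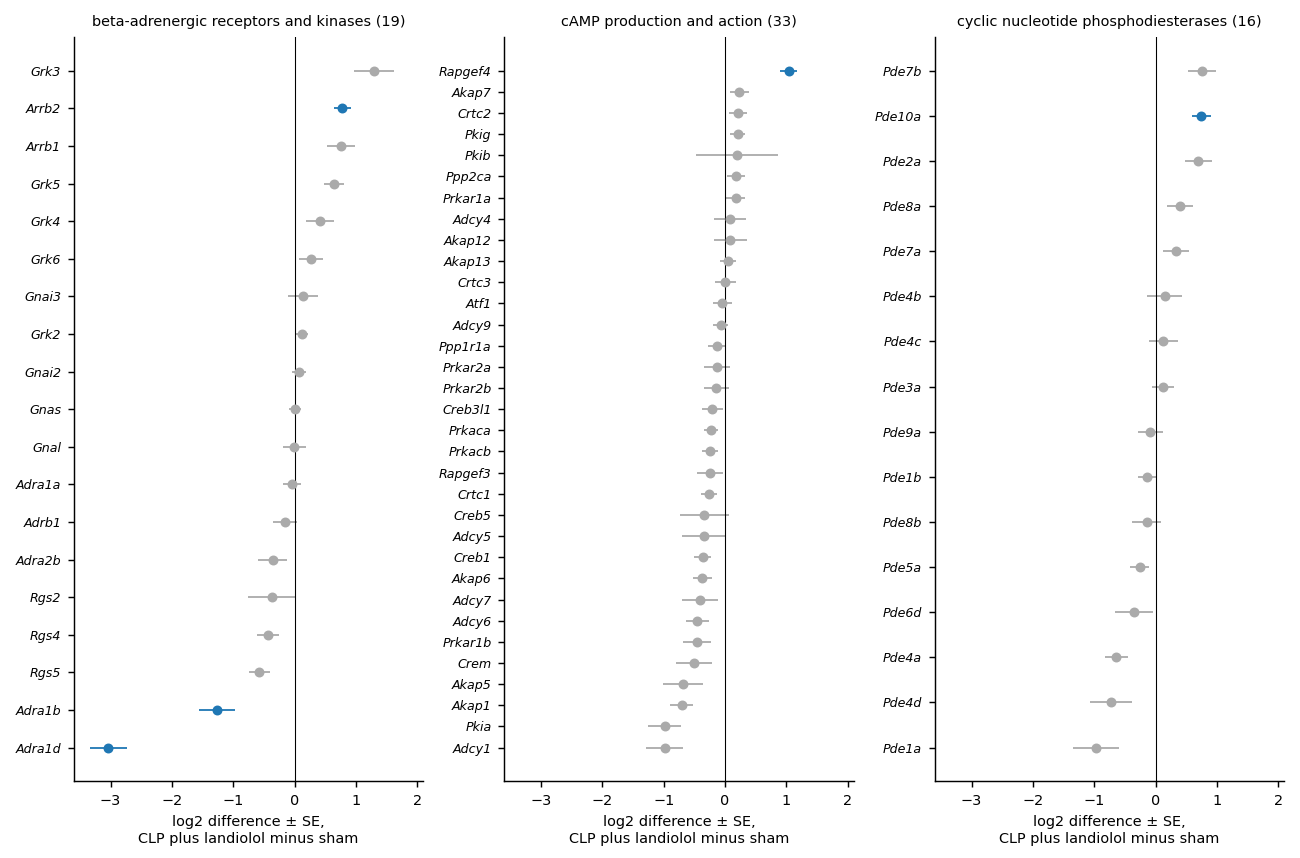
Log2 difference of CLP plus landiolol minus sham with its SE for the 19 adrenergic receptor, G protein, kinase and arrestin genes, the 33 genes of cAMP production and action and the 16 phosphodiesterases measured, with blue points for genes past an FDR of 1%. Adra1d lies farthest from 0, at -3.04, and Adrb1 lies at -0.15.

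The 8 probes that passed both against sham and against CLP belong to 6 named genes and 2 unnamed probes. Both comparisons used the same CLP plus landiolol arrays. Pde10a, a phosphodiesterase of both cAMP and cGMP, was at 7.10, 7.89, 7.91, 8.11 and 7.92 in sham, 9.61, 9.60, 9.60, 9.60 and 9.44 in CLP and from 8.35 to 8.76 (median 8.51) under CLP plus landiolol. No array of 1 group overlapped those of another, and the CLP plus landiolol arrays lay between sham and CLP. It was higher than sham by 0.74 ± 0.15 (adjusted p = 0.00503), where CLP alone was higher by 1.79, and its difference from CLP was -1.05 (adjusted p = 0.0268). The call against sham was lost without any 1 of CLP plus landiolol replicates 2 to 6, with an adjusted p of up to 0.0122. The call against CLP was lost without any 1 of sham replicate 3, CLP replicates 2, 3 and 4, or CLP plus landiolol replicates 1, 2, 5 and 6, with an adjusted p of up to 0.12.

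In 5 of the others the difference between CLP and sham did not pass, and the CLP plus landiolol mean lay on 1 side of both. Abhd17c, an enzyme that removes palmitate from proteins, was at 10.28, 10.23, 9.82, 10.27 and 10.10 in sham, 9.82, 9.66, 10.26, 10.21 and 10.65 in CLP and from 10.79 to 11.30 (median 11.04) under CLP plus landiolol, higher than sham by 0.91 ± 0.17 (adjusted p = 0.00236) and than CLP by 0.93 (adjusted p = 0.0499). Eepd1, a nuclease-like protein that takes part in DNA repair, was at 10.81, 10.63, 10.89, 11.24 and 11.27 in sham, 11.01, 10.99, 10.55, 10.66 and 10.61 in CLP and from 11.47 to 12.13 (median 11.90) under CLP plus landiolol, higher by 0.87 ± 0.16 (adjusted p = 0.00206) and 1.07 (adjusted p = 0.0268). In both genes all 6 CLP plus landiolol arrays were the highest of the 16, but the second probe of Eepd1 differed from sham by 0.20 and did not pass. Cntnap1, a membrane protein best known from axon-glia junctions, was at 9.13, 8.86, 9.74, 9.96 and 9.85 in sham, 9.29, 10.44, 9.90, 9.76 and 9.35 in CLP and from 7.09 to 8.54 (median 8.15) under CLP plus landiolol, with a difference of -1.47 from sham (adjusted p = 0.0028) and -1.71 from CLP (adjusted p = 0.0461). Fbxw10, a member of the F-box family, was at 11.62, 10.69, 11.50, 10.49 and 11.02 in sham, 11.42, 11.33, 11.04, 10.04 and 11.08 in CLP and from 8.90 to 10.30 (median 9.26) under CLP plus landiolol. Its difference was -1.72 from sham (adjusted p = 0.00133) and -1.63 from CLP (adjusted p = 0.0499), and CLP plus landiolol replicate 4 lay above CLP replicate 4. Its other probe differed from sham by -1.61 and did not pass. The unnamed probe A_44_P974425 was well above background on 5 of the 6 CLP plus landiolol arrays and on no other array. It was thus kept only through the group in which it is high, so its calls are no independent support. It was at least 1.71-fold above sham (adjusted p = 0.00883) and differed from CLP by 1.33 (adjusted p = 0.0268). Its call against sham was lost without any 1 of sham replicates 1, 2, 4 and 5, CLP replicate 1, or CLP plus landiolol replicates 1, 3, 4, 5 and 6, with an adjusted p of up to 0.0271.

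In Ern1 and a second unnamed probe the CLP mean lay between those of sham and CLP plus landiolol. Ern1 encodes IRE1-alpha, a sensor of misfolded proteins in the endoplasmic reticulum, and its brighter probe was at 8.99, 9.34, 8.78, 9.08 and 8.89 in sham, 10.05, 9.43, 10.31, 9.63 and 10.46 in CLP and from 10.40 to 11.33 (median 11.001) under CLP plus landiolol, higher than sham by 1.96 ± 0.21 (adjusted p = 4.49e-05). Its dimmer probe passed against CLP (difference 0.98, adjusted p = 0.0499) and the brighter one did not (difference 0.99, adjusted p = 0.0866). Among 32 genes of heat shock, ER stress and the integrated stress response, Ern1 was the 1 that rose and Hspd1, a mitochondrial chaperone, the 1 that fell, by 0.78 (adjusted p = 0.00202). Over all genes 5.49% passed. The probe A_44_P1131598 was at 6.07, 7.51, 5.85, 6.61 and 6.24 in sham, 8.01, 7.23, 7.61, 7.46 and 8.25 in CLP and from 9.28 to 9.97 (median 9.71) under CLP plus landiolol. All 6 CLP plus landiolol arrays lay above every other array, 3.21 ± 0.27 above sham (adjusted p = 6.01e-06) and 1.95 above CLP (adjusted p = 0.0268). Its sequence is shown because the tables used give it no gene, and it lies at 51483692-51483751 of chromosome 10, plus strand, in build rn4.
A_44_P1131598 probe: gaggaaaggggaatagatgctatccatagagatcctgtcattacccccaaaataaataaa
All 8 calls against CLP were lost without any 1 of CLP replicates 3 and 4 or CLP plus landiolol replicates 1, 2 and 5, and those of Abhd17c, Ern1 and Fbxw10 in 14 or 15 of the 16 fits without an array. Without single arrays the number of genes that passed against CLP ran from 0, without any of the same 5 arrays, to 113, without CLP replicate 5. With the row as a term 1 passed, the probe A_44_P974425, which was kept only through the CLP plus landiolol arrays. With the month of the title code as a term 0 passed.

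**Figure D4:**
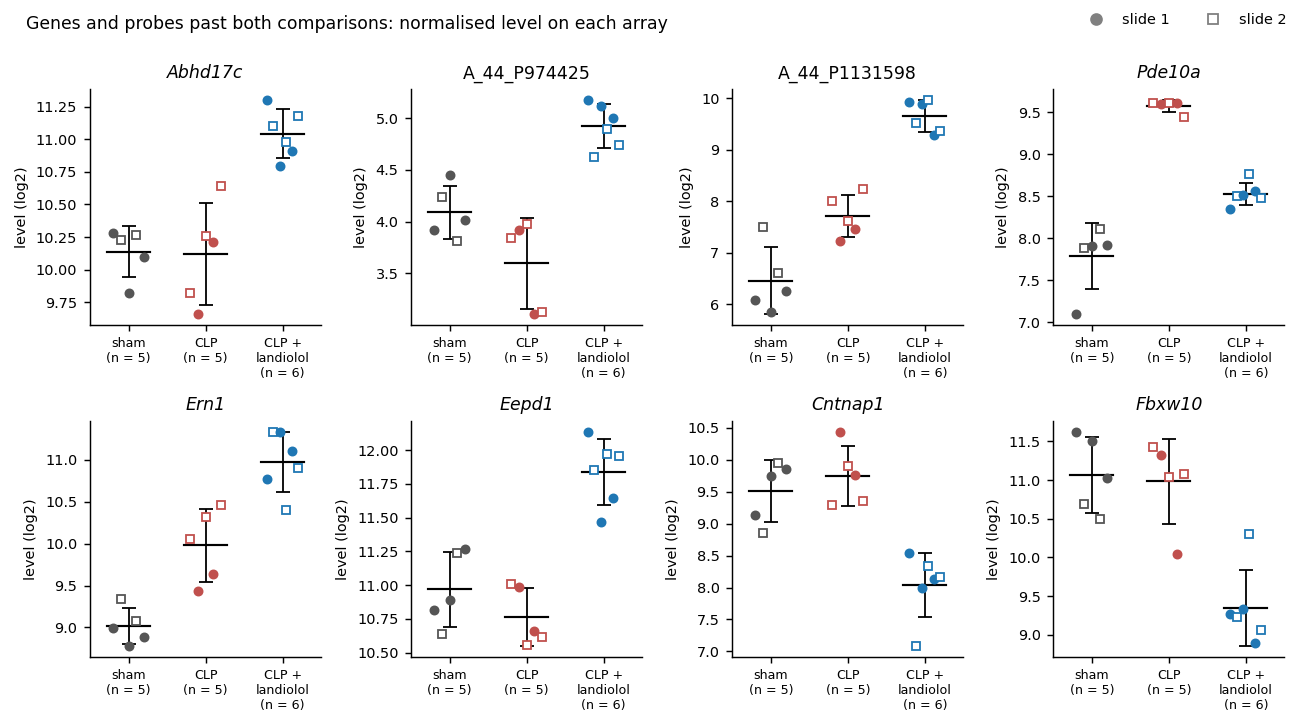
Normalised level (log2) on each array of the 8 genes and probes that passed both CLP plus landiolol vs sham and CLP plus landiolol vs CLP, with filled circles for slide 1 and open squares for slide 2, the line at the mean and bars of ±1 SD. Pde10a under CLP plus landiolol lies between sham and CLP, and the 6 CLP plus landiolol arrays of A_44_P1131598 lie above the other 10.

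Genes of contraction changed singly, where 5.49% of all genes passed. Of 39 sarcomere and Z-disc genes 2 rose and 1 fell (median 0.06). Ankrd2, a stretch-responsive protein of the sarcomere, was at 4.75, 3.80, 5.14, 4.26 and 4.57 in sham and from 5.95 to 11.35 (median 9.32) under CLP plus landiolol. It was well above background on 3 of the 5 sham arrays and the groups did not overlap. The difference was 4.71 ± 0.91 (adjusted p = 0.00318), and with the row as a term it was 2.87 (adjusted p = 0.611). Myot, which crosslinks actin at the Z-disc, was at 8.20, 9.34, 7.90, 9.02 and 8.62 in sham, 11.82, 12.26, 12.13, 12.55 and 11.40 in CLP and from 9.70 to 11.42 (median 10.998) under CLP plus landiolol, and its 3 probes all passed (difference 2.21 ± 0.32, adjusted p = 0.00043). Against CLP it differed by -1.20 (adjusted p = 0.179), which did not pass, and on slide 2 it differed from sham by 1.38, on slide 1 by 2.86. Smyd1, a methyltransferase needed for the assembly of sarcomeres, was at 14.42, 13.78, 14.22, 14.81 and 14.04 in sham and from 11.65 to 13.24 (median 12.39) under CLP plus landiolol (difference -1.88 ± 0.27, adjusted p = 0.000424). Of 31 genes of calcium cycling 2 fell and 0 rose (median -0.04). Jph2, which ties the T-tubule to the sarcoplasmic reticulum, fell by 1.41 (adjusted p = 0.00086), from 15.19, 15.29, 15.11, 15.64 and 15.41 in sham to levels from 13.36 to 14.87 (median 13.88) under CLP plus landiolol.

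Potassium channel genes were more often lower than higher, where 2.37% of all genes were called lower and 3.12% higher. Of 29 measured, 5 fell and 1 rose, 22 had a negative difference, and the median was -0.54, while CLP without the drug gave a median of -0.62. Kcnk2, a two-pore channel opened by stretch, was at 9.52, 9.42, 9.18, 9.81 and 8.77 in sham and from 6.18 to 7.84 (median 6.98) under CLP plus landiolol (difference -2.38 ± 0.37, adjusted p = 0.000686). Kcnk1, a weakly conducting channel of the same family, rose by 3.15 ± 0.53 (adjusted p = 0.00127), with 3.84, 6.29, 3.36, 3.98 and 3.17 in sham, where it was well above background on 1 array, and from 6.05 to 8.31 (median 7.13) under CLP plus landiolol, whose lowest array was below sham replicate 2. The other 4 that fell were Kcnj3, Kcnj11, Kcnj12 and Abcc8, the last a regulatory subunit of channels closed by ATP. Kcnj12, an inward rectifier, fell by 1.49 (adjusted p = 0.00401) and Abcc8 by 1.15 (adjusted p = 0.00344). The number of falls was 1 without sham replicate 3, 2 without sham replicate 4 or 5 or CLP plus landiolol replicate 1 or 2, and 3 without sham replicate 1 or CLP plus landiolol replicate 3, 5 or 6. The call of Kcnj12 was lost without sham replicate 3 or 4 or CLP plus landiolol replicate 1 or 2, and that of Abcc8 without sham replicate 3 or 5.

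Several lists of energy supply held falls, where 2.37% of all genes were called lower. Ucp3, a carrier of the inner mitochondrial membrane, was at 10.63, 11.005, 10.505, 10.47 and 9.13 in sham and from 6.47 to 8.78 (median 7.35) under CLP plus landiolol (difference -2.82 ± 0.52, adjusted p = 0.00241). Ppara, the nuclear receptor that induces fatty acid oxidation, was at 12.11, 11.40, 11.61, 11.67 and 11.68 in sham and from 10.47 to 10.82 (median 10.71) under CLP plus landiolol (difference -0.996 ± 0.13, adjusted p = 0.000275), and 2 of its 3 probes passed. The groups did not overlap in either gene. These and Ppargc1b were the 3 that fell among 39 genes of fatty acid uptake and oxidation, where 0 rose. The median of the list was -0.14, and with the row as a term it was 0.23. Ppargc1b, a coactivator of mitochondrial genes, differed by -1.44 ± 0.31 (adjusted p = 0.00691). Its call was lost without any 1 of the 5 sham replicates or of CLP plus landiolol replicates 2, 3, 5 and 6, with an adjusted p of up to 0.0217. Of 43 genes of glucose uptake and glycolysis 3 fell and 0 rose (median -0.29, and -0.05 with the row as a term). Among the 3 was Hk2, the hexokinase of muscle, which fell by 1.16 (adjusted p = 0.00145), and 1 fell without sham replicate 3 or 5. The number of fatty acid genes that fell was 2 to 6 without single arrays, with 2 without any 1 of the 5 sham replicates or of CLP plus landiolol replicates 2, 3, 5 and 6, and 6 without CLP replicate 5. Of 32 genes of NAD, AMPK and mitochondrial regulators 4 fell and 1 rose (median -0.31), with 2 falls left without sham replicate 1 or 4 and 0 rises without any 1 of sham replicates 1, 3 and 5 or CLP plus landiolol replicates 1, 3, 4, 5 and 6. Nmrk2, a kinase of striated muscle that makes NAD from nicotinamide riboside, was at 9.75, 10.19, 9.56, 9.87 and 9.59 in sham, 5.87, 5.69, 5.27, 6.19 and 4.87 in CLP and from 5.59 to 8.38 (median 6.03) under CLP plus landiolol. CLP plus landiolol replicate 4 was the highest of its group and still below all sham arrays, and the difference was -3.39 ± 0.40 (adjusted p = 9.53e-05), or 10.51-fold lower. Esrra, a nuclear receptor that drives mitochondrial genes, fell by 0.84 (adjusted p = 0.00281).

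Most genes of the respiratory chain had a negative difference that did not pass. Of all 19464 genes, 9870 were negative, 9594 were positive and 2.37% were called lower. Of 85 genes of the respiratory chain 75 had a negative difference, 2 fell and 0 rose, and the median was -0.23 (-0.17 on slide 1 and -0.27 on slide 2, with -0.23 in CLP). Atp5f1d, a subunit of ATP synthase, was at 15.50, 15.13, 15.19, 15.45 and 15.15 in sham and from 14.39 to 14.77 (median 14.59) under CLP plus landiolol (difference -0.70 ± 0.14, adjusted p = 0.00338), and did not pass without sham replicate 1 (adjusted p = 0.012) or sham replicate 4 (adjusted p = 0.0111). Of 73 mitochondrial ribosomal proteins 58 were negative and 1 fell, Mrpl12, by 0.84 (adjusted p = 0.00134), with a median of -0.22. Of 102 cytosolic ribosomal proteins 82 were positive, none passed and 9 had an unadjusted p under 0.05. Their median was 0.10, and 0.001 with the row as a term.

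The lists of metal handling, protein turnover and the glucocorticoid response held rises and no falls, where 3.12% of all genes were called higher. Of 23 genes of metal handling 7 rose and 0 fell (median 0.61), with 4 left without any 1 of sham replicates 1 and 3 or CLP plus landiolol replicates 3 and 5. Hamp, the hormone hepcidin, which blocks the export of iron from cells, was at 11.20, 11.27, 11.13, 9.31 and 12.24 in sham and from 12.15 to 15.68 (median 14.51) under CLP plus landiolol (difference 3.31 ± 0.54, adjusted p = 0.00108). Its groups overlapped, since CLP plus landiolol replicate 4 was below sham replicate 5. Slc11a1, an exporter of metal ions from the phagosome of macrophages, was at 6.76, 6.01, 6.32, 5.41 and 5.57 in sham and from 7.67 to 8.49 (median 8.03) under CLP plus landiolol, rose by 1.99 ± 0.26 (adjusted p = 0.000219), and passed also with the row as a term (2.84, adjusted p = 0.0084). Of 25 genes of protein turnover and autophagy 5 rose and 0 fell (median 0.21), and the number that rose was 5 without any single array. Ctsl, a lysosomal protease, was at 14.62, 15.16, 14.39, 14.36 and 14.65 in sham and from 15.52 to 16.31 (median 16.05) under CLP plus landiolol (difference 1.37 ± 0.18, adjusted p = 0.000201). Gabarapl1, a protein of the autophagosome membrane, was at 15.13, 15.01, 14.45, 14.27 and 14.81 in sham and from 15.53 to 16.20 (median 15.86) under CLP plus landiolol (difference 1.12 ± 0.18, adjusted p = 0.000792), and CLP without the drug differed from sham by 0.44. Sqstm1, an autophagy receptor, rose by 1.12 and Bnip3, a receptor for the removal of mitochondria, by 1.78. Of 19 glucocorticoid-responsive genes 4 rose and 0 fell (median 0.26). They were Hsd11b1, Fkbp5, Lcn2, which is reported above, and Mt2A, which is counted in metal handling too. The call of Mt2A was lost in 8 of the 16 fits without an array, and that of Fkbp5 without sham replicate 5. Hsd11b1, the enzyme that regenerates active glucocorticoid, was at 10.003, 10.79, 9.94, 10.18 and 9.94 in sham and from 11.49 to 13.14 (median 12.35) under CLP plus landiolol, with no overlap (difference 2.14 ± 0.25, adjusted p = 9.52e-05).

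Survival and cell cycle genes went both ways, where 5.49% of all genes passed. Of 29 apoptosis genes 2 rose and 1 fell (median -0.12), and of 31 genes of cell division 1 rose and 2 fell (median 0.19). Mcl1, which protects mitochondria from apoptosis, was at 12.17, 12.45, 12.60, 12.29 and 12.30 in sham and from 13.13 to 13.59 (median 13.34) under CLP plus landiolol (difference 0.98 ± 0.11, adjusted p = 8.15e-05). Bcl2l1, of the same family, rose by 1.23 ± 0.23 (adjusted p = 0.00266), while its other 2 probes did not pass, as was the case for the second probe of Mcl1. Fas, a death receptor, fell by 1.21 (adjusted p = 0.00614), and its other probe did not pass. Ccnd1, the D-type cyclin that starts the cell cycle, fell by 1.75 (adjusted p = 0.00185), from 9.82, 10.05, 10.51, 9.79 and 9.90 in sham to levels from 7.52 to 9.23 (median 8.12) under CLP plus landiolol. Of the helicase subunits that unwind DNA for replication, Mcm7 rose by 1.32 ± 0.29 (adjusted p = 0.0073) and Mcm5 fell by 0.84 (adjusted p = 0.00473), where the other probe of Mcm5 did not pass. The calls of Fas, Mcm7 and Mcm5 were lost in 6, 10 and 7 of the 16 fits without an array, with an adjusted p of up to 0.0197, 0.0233 and 0.0154.

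Single genes of vessels and matrix passed, where 5.49% of all genes did. Of 38 endothelial and vascular genes 2 rose and 1 fell (median 0.03). The call of 1 of the 2 that rose was lost in 11 of the 16 fits without an array. Ace, the enzyme that forms angiotensin II, was at 8.06, 8.32, 9.04, 9.08 and 8.86 in sham, 10.70, 11.44, 10.82, 11.17 and 11.02 in CLP and from 10.60 to 11.50 (median 10.66) under CLP plus landiolol (difference 2.18 ± 0.22, adjusted p = 2.92e-05), and its other probe passed too. Angpt1, the ligand that keeps endothelium tight through the receptor Tie2, was at 10.78, 10.31, 10.69, 10.93 and 10.55 in sham and from 8.20 to 9.65 (median 8.74) under CLP plus landiolol (difference -1.76 ± 0.32, adjusted p = 0.0023). Apln, a peptide that widens vessels and strengthens contraction, was at 11.49, 10.94, 11.30, 11.41 and 11.36 in sham and from 6.85 to 9.11 (median 7.66) under CLP plus landiolol. Both of its probes fell, the brighter with a difference of -3.49 (adjusted p = 2.25e-05), or 11.3-fold lower. Of 45 collagens and matrix proteins 1 rose and 1 fell (median -0.29). Spon1, a secreted matrix protein, was at 10.51, 10.32, 10.57, 9.94 and 10.24 in sham and from 11.21 to 12.13 (median 11.55) under CLP plus landiolol (difference 1.25 ± 0.18, adjusted p = 0.000448). Col15a1, a collagen of basement membranes, fell by 1.36 (adjusted p = 0.00194), from 12.31, 12.85, 12.47, 12.90 and 12.57 in sham to levels from 10.67 to 12.26 (median 11.09) under CLP plus landiolol.

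Among the remaining genes of the largest differences, Cdo1, which oxidises cysteine on the way to taurine, was at 5.09, 5.08, 5.44, 4.07 and 5.19 in sham, where it was well above background on 4 of 5 arrays, and from 7.68 to 10.65 (median 10.33) under CLP plus landiolol (difference 4.73 ± 0.48, adjusted p = 2.80e-05). Scgb2a1, a small secretory protein, rose on all 3 of its probes, by 3.65 to 4.52. It was at 4.69, 3.30, 3.39, 5.11 and 3.38 in sham, where it was well above background on 2 of 5 arrays, and from 6.71 to 9.48 (median 8.43) under CLP plus landiolol (adjusted p = 0.000125). Mrgprx3, a receptor of sensory neurons, was well above background on none of the sham arrays and was at least 8.29-fold higher under CLP plus landiolol (adjusted p = 6.01e-06), where it ran from 6.44 to 7.87 (median 6.85). Shcbp1l was at 2.23, 4.95, 3.396, 3.89 and 2.61 in sham, where it was well above background on 1 of 5 arrays, and from 5.71 to 7.89 (median 7.53) under CLP plus landiolol (difference 3.85 ± 0.51, adjusted p = 0.000235). Pdzk1, a scaffold of membrane transporters, was at 7.13, 6.85, 6.76, 6.85 and 5.42 in sham, was well above background on none of the CLP plus landiolol arrays, and was at least 5.15-fold lower there (adjusted p = 4.19e-05). Slc4a1, the anion exchanger of red cells, was at 10.30, 10.69, 10.31, 10.33 and 10.73 in sham and from 5.35 to 8.13 (median 6.54) under CLP plus landiolol (difference -3.89 ± 0.43, adjusted p = 5.75e-05). Slc4a1 was the 1 call among 4 erythroid markers measured, whose summed signal was 3316 to 3969 in sham, 1806 to 114739 in CLP and 1479 to 10831 under CLP plus landiolol. That sum, mainly haemoglobin, overlapped between all groups, and whether red cells had a part in the fall of Slc4a1 was not tested.

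**Figure D5:**
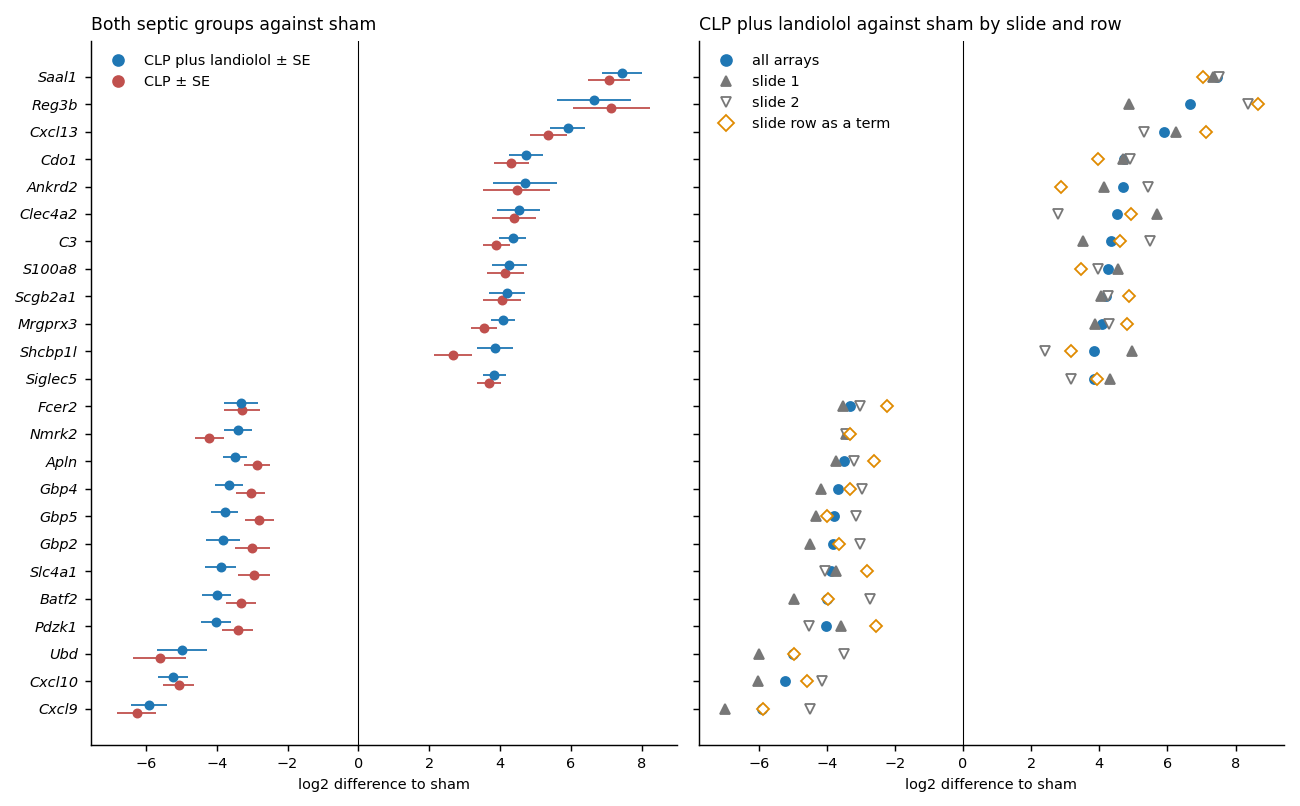
Log2 difference to sham of the 24 genes that rose or fell most under CLP plus landiolol, at left for CLP plus landiolol and for CLP with their SE (the comparisons share the sham arrays), and at right for CLP plus landiolol over all arrays, on each slide alone and with the slide row as a term. All 24 kept their direction on both slides and with the row term, and Reg3b was at 4.88 on slide 1 and 8.37 on slide 2. The 24 were chosen for groups that did not overlap, which fixed their direction on each slide in advance. The fit with the row term used the same arrays.

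No gene passed in the lists of AP-1, C/EBP and immediate early factors (26 measured, 2 with an unadjusted p under 0.05), the circadian clock (21 and 5), branched-chain amino acid and ketone catabolism (24 and 0), sodium and pacemaker channels and connexins (13 and 6) and natriuretic peptides (8 and 3), nor among the fibroblast markers (7 and 5) and the smooth muscle and pericyte markers (7 and 4). With the row as a term in the model, the genes named above that still passed were Saal1, C3, Slpi, Cxcl13, Adgre1, Il18, Slc11a1 and Mrgprx3. In Jph2, Angpt1, Bnip3, Lyz2, Sqstm1, Hspd1 and Abcc8 a further probe of the gene did not pass.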

How the data were processed

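RNA of rat left ventricles was measured on 1-colour Agilent SurePrint G3 arrays. The authors analysed the scanned images with Agilent Feature Extraction 10.5, a version given in the submitters' processing notes. They deposited its output with intensity values, background-subtracted and not normalised between arrays. They also deposited a table of quantile-normalised log2 values, used here only as an alternative, and its 16 columns of male rats were not used.

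The log2 of the processed intensity of the 16 female arrays was averaged over spots of a probe, without control spots and outlier flags, and quantile-normalised. A probe was kept where, in 1 or more of the 3 groups, at least 80% of arrays held it well above background. A probe could thus be kept only through the group in which it is high. Differences were tested with limma 3.58.1 (R 4.3.3) on all 16 arrays, with Benjamini-Hochberg adjustment over all probes kept, at an FDR of 1% against sham and 5% against CLP. An adjusted p is from this model unless another fit is named beside it, and all are two-sided. The number of arrays limits the precision. The scripts were tested on simulated data, and motifs and figures were made in Python 3.11.15.

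Gene symbols came from RefSeq tables through the accession of a probe (21184 of 45598 probes) or its symbol (9060, and 406 by an older symbol), with the name in the files kept for 5247 probes and no name for 9701. A gene stands for its brightest kept probe, and where another probe of a gene given with values passed or missed the threshold against it, this is stated. "At least" folds set the brighter group against the lowest signal well above background. Genes were named by rule: the 12 largest rises and 12 largest falls that did not overlap, up to 4 members of each list that passed and 2 that did not, any member of the lists on the target of the drug, and genes that passed against both sham and CLP. Outside the rule, Kcnj3, Kcnj11, Psmd2, Psmd4, Psmd12 and Psmc2 were named after their values were seen. The 48 lists, the rule and the comparison were chosen with earlier results of these data known. Some genes of the lists on receptors and lymphocytes are not reported here and were left out of those lists. Replicate numbers follow the order of deposit, and the labels do not say whether rats of different groups were operated on together. The codes in the sample titles, which read like dates, were unique to a rat.

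The alternatives tried were 75th percentile scaling, normexp background correction, other filters, only the 11 arrays of both groups, slide or row as a term, each slide alone, a trended prior, array weights, outlier spots kept, the authors' log2 values, an FDR of 5%, 1 probe per gene, SAM with 100 permutations, each array left out and, added after the data were seen, the month of the title code as a term or alone.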

Additional observations from a re-analysis of the deposited data

Results flagged for a closer look

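In the levels of the 94 genes reported with values, 1 array stood apart from the rest of its group by Dixon's test in 19 of 282 groups of arrays, or 6.74%, and chance flags about 1 in 20 groups. The number in brackets is the gap to the nearest array divided by the range of the group. In sham, replicate 4 was the lowest in Gbp2 (0.876) and Cdo1 (0.737), replicate 5 the lowest in Pdzk1 (0.784) and Ucp3 (0.717), replicate 1 the lowest in Pde10a (0.776), and replicate 2 the lowest in Adra1a (0.838) and the highest in Kcnk1 (0.741) and Hsd11b1 (0.714). In CLP, replicate 5 was the lowest in Pde10a (0.934), where all 5 arrays lay between 9.44 and 9.61, and in Clec4a2 (0.850), replicate 4 the lowest in Fbxw10 (0.727), and replicate 1 the highest in Ccnd1 (0.811) and Lyz2 (0.779). In CLP plus landiolol, replicate 4 was the highest in Fbxw10 (0.687), Mcm5 (0.689) and Nmrk2 (0.655) and the lowest in Shcbp1l (0.694), replicate 1 the highest in Pdzk1 (0.770), and replicate 3 the lowest in C3ar1 (0.843). Gbp2 at 14.34 in sham replicate 4, against 15.67 to 15.86 in the other sham arrays, was still above all CLP plus landiolol arrays.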

How the results depend on the processing

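In CLP plus landiolol vs sham, 1174 genes passed, and between 1011 and 1362 did so under 75th percentile scaling, normexp correction, other filters, only the arrays of both groups, the slide as a term, a trended prior, outlier spots kept, the authors' log2 values, 1 probe per gene and SAM. The number was 2036 with array weights and 2826 at an FDR of 5%. It was 100 within slide 1 and 11 within slide 2, with 6 and 5 arrays, and 19 with the slide row as a term, where the cause was not tested. With the month of the title code as a term it was 974, and 99 within the month of most arrays, with 6 arrays. Without single arrays it ran from 787 to 1425. In CLP plus landiolol vs CLP, 22 genes passed, 18 with the slide as a term, 1 with the row as a term, 0 with the month, and 0 to 113 without single arrays. No called difference of a named gene turned its direction under any of these, but the calls were made on the same arrays. Of 251 named genes, 103 passed, 73 of them without each array in turn, and counts of 1 or 2 in a list often went to 0 or rose without single arrays. The fold of a dim gene is limited by its signal over background. No paired analysis was possible because the labels give no replicate numbers that pair rats of different groups and no title code is shared by rats.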
